A study of Mus musculus with 2 samples.

Results

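The mouse miR-290 to miR-295 cluster is a group of microRNA hairpins best known from early embryos and embryonic stem cells. It was examined here in microvesicles, the small membrane vesicles that cells shed into their medium, from adipocytes of the 3T3-L1 line. Its members were the array entries named mmu-miR-290-5p, mmu-miR-290-3p, mmu-miR-291a-5p, mmu-miR-291a-3p, mmu-miR-292-5p, mmu-miR-292-3p, mmu-miR-293, mmu-miR-294 and mmu-miR-295, without an asterisk and written below without the species prefix. They made up 9 of the 567 mouse miRNA entries, 28 of the 1672 mouse probes and 180 of the 11340 mouse spots on each array. The choice of members used names and no intensities.

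Cells of 3T3-L1, a mouse preadipocyte line, become adipocytes under hormonal induction. Both groups shared this line, high-glucose DMEM with 10% FCS, and induction with insulin at 10 µg/ml, dexamethasone at 0.25 µM and 3-isobutyl-1-methylxanthine at 0.5 mM. They differed in the window over which 48 h conditioned medium was taken, day 2 to day 4 (day 2-4) or day 8 to day 10 (day 8-10). Vesicles were spun out by ultracentrifugation, and 100 ng of their Trizol-extracted RNA was dephosphorylated before labelling with the dye Cy3. Each window was measured on 1 array, with no uninduced sample, so no difference has a replicate check and no p-value is given. Window, vesicle preparation and array cannot be told apart, nor can fewer vesicles that carry a miRNA and less of it per vesicle.

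Each hairpin of the cluster is cut into a 5p arm and a 3p arm, and either can be loaded into an Argonaute protein to repress messenger RNAs that pair with its seed, bases 2 to 8. Several 3p arms carry a seed beginning AAGUGC, shared with members of the miR-302 family and close to that of the miR-17 family. In embryonic stem cells these 3p arms promote the passage from G1 to S phase by repressing cell cycle inhibitors, and the cluster is switched off in most cells as they differentiate. It is not an established adipocyte miRNA cluster.

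The mature sequences show which members share a seed. RefSeq (GRCm38.p6) held 8 of the 9 members, and miR-292-3p is named only. Sequences are written 5′ to 3′ with the seed in capitals. The 5p members are these:
miR-290-5p: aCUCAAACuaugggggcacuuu
miR-292-5p: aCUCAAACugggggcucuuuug
miR-291a-5p: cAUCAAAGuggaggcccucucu

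The 3p members are these:
miR-290-3p: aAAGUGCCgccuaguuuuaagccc
miR-291a-3p: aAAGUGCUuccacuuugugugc
miR-293: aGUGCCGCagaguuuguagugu
miR-294: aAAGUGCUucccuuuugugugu
miR-295: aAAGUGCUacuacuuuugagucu

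The seed CUCAAAC was common to miR-290-5p and miR-292-5p, which were identical at 15 of 22 positions and over their first 9 bases. The seed AAGUGCU was common to miR-291a-3p, miR-294 and miR-295. The 2 hairpins below gave the detected arms miR-290-5p and miR-294, and both mature arms of each are in capitals.
Mir290a: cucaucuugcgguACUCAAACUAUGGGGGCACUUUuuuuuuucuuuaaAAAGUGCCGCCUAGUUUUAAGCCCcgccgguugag
Mir294: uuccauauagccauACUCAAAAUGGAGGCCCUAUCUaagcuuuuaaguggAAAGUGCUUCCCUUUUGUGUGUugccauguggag

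In GRCm38.p6, Mir290a lies at chr7:3218626-3218708 and Mir294 at chr7:3220641-3220724, both on the plus strand. The 7 hairpins of the locus span chr7:3218626-3220841. Mir291a, Mir292, Mir291b, Mir293, Mir294 and Mir295 lie inside the spans of the long noncoding RNA gene D7Ertd143e and of Nlrp12, a protein-coding gene, while Mir290a overlaps Nlrp12 in part and lies outside D7Ertd143e. No source used here names the genome build of the file positions. For the 13 locus entries with a RefSeq sequence, the position given in the files ended 1 base past the RefSeq end of the mature arm.

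The cluster was seen in part. miR-290-5p, miR-292-5p and miR-294 were detected on both arrays, and the remaining 6 members on neither. A probe counted as detected where more than 0.5 of its spots, outlier spots left out, were marked well above background by the scanner software. A miRNA counted as detected through any such probe. The 3 of 9 members stood beside 156 of 567 mouse miRNAs (27.5%) detected at day 2-4 and 166 of 567 (29.3%) at day 8-10. The cluster's share was therefore near that of the array as a whole.

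Detection was uneven between arms. Of the 3 members from 5p arms, 2 were detected, and of the 6 from 3p arms, 1 was. Over the whole array, 18 of 67 entries with 5p in their name (26.9%) were detected at day 2-4 and 17 (25.4%) at day 8-10. For entries with 3p in their name the counts were 10 of 62 (16.1%) and 8 of 62 (12.9%). The 3p members miR-293, miR-294 and miR-295 carry no arm in their name and fall outside that class. Of the members named 3p, 0 of 3 were detected, and of those without an arm in the name, 1 of 3 was. With the 5 other array entries of the locus added, 2 of 7 5p arms and 1 of 7 3p arms were detected, so the difference between arms was 1 miRNA. No hairpin had both arms detected.

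**Figure D1:**
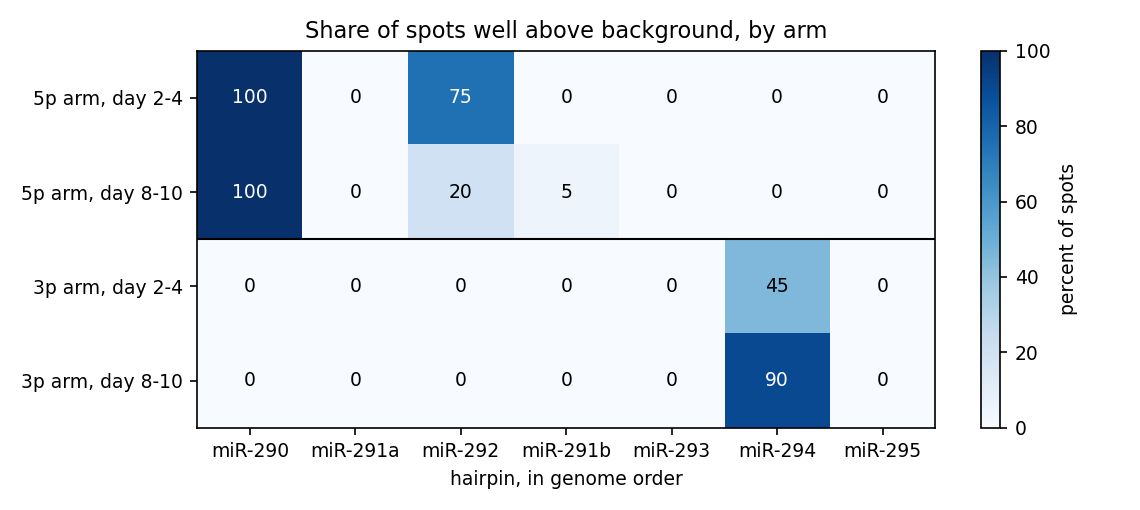
Percent of spots marked well above background for both arms of each hairpin of the locus, in genome order, on the day 2-4 and day 8-10 arrays; shading and the printed number give the percent. The 5p arm of miR-290 is at 100% on both arrays, the 5p arm of miR-292 goes from 75% to 20%, the 3p arm of miR-294 goes from 45% to 90%, and 1 further cell, the 5p arm of miR-291b at day 8-10, is above 0.

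Intensities below are processed spot intensities in linear units after background subtraction, unscaled unless stated, and can be negative. Probes bind their targets unequally, so levels are not ranked between miRNAs. The probes of a miRNA are named here by the length of the genome interval given for each. The intervals of a member share their 3′ end, and for members with a sequence they are shorter than the arm. Most of the seed of each 5p member falls outside its intervals. These intervals were 12 to 15 bases for the 5p members and 16 to 22 bases for the 3p members.

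miR-290-5p, the arm opposite miR-290-3p, was detected by all 4 probes on both arrays. At day 2-4 its 19 spots ran from 12.4 to 28.6 with a median of 23.3. At day 8-10 its 20 spots ran from 7.09 to 23.9 with a median of 11.1. Every one of these spots was well above background, and the day 8-10 spots lay mostly lower, with overlap between the arrays.

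By probe, the 12-base probe averaged 13.1 ± 0.59 (SD, n = 4 spots) at day 2-4 and 8.53 ± 1.20 (SD, n = 5 spots) at day 8-10. The 13-base probe averaged 25.1 ± 1.59 and then 21.4 ± 2.11 (SD, n = 5 spots each). The 14-base probe averaged 25.1 ± 2.73 and then 13.0 ± 2.29 (SD, n = 5 spots each). The spots of the 13-base probe overlapped between the arrays, while those of the 12-base and 14-base probes did not. The 15-base probe averaged 23.0 ± 0.97 and then 10.6 ± 0.63 (SD, n = 5 spots each), also without overlap.

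miR-292-5p shares the CUCAAAC seed. At day 2-4 its 20 spots ran from -1.75 to 21.3 with a median of 6.84, and 15 were well above background. At day 8-10 they ran from -0.34 to 7.04 with a median of 4.50, and 4 were well above background. It was detected by 3 of its 4 probes at day 2-4 and by 1 at day 8-10, so its presence on the later array rests on that probe.

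That probe, of 13 bases, averaged 6.28 ± 0.62 at day 2-4 and 5.63 ± 1.32 at day 8-10 (SD, n = 5 spots each), with overlapping spots. The 14-base probe averaged 19.0 ± 1.59 and then 4.59 ± 0.55 (SD, n = 5 spots each), and no spot of it was well above background at day 8-10. The 15-base probe averaged 8.18 ± 1.20 and then 4.09 ± 1.27 (SD, n = 5 spots each). The spots of the 14-base probe did not overlap between the arrays, unscaled or scaled as described below, while those of the 15-base probe were apart unscaled and overlapped once scaled. The 12-base probe was detected on neither array, with means of 0.58 and -0.070. The probes of this miRNA thus ranged from little difference between windows to a large one.

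miR-291a-5p, the third 5p member, was not well above background at any spot. Its 19 spots ran from -1.15 to 2.65 at day 2-4 and from -2.01 to 3.31 at day 8-10.

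miR-294, a 3p arm with the AAGUGCU seed and among the cluster's abundant products in embryonic stem cells, was the detected 3p member. At day 2-4 its 20 spots ran from 1.95 to 7.39 with a median of 4.90, and 9 (45%) were well above background. At day 8-10 they ran from 3.37 to 8.10 with a median of 6.18, and 18 (90%) were well above background. The arrays overlapped over most of this range. Detection went from 1 of 3 probes to 3 of 3.

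The 19-base probe of miR-294 averaged 5.34 ± 0.89 at day 2-4 and 6.63 ± 0.92 at day 8-10 (SD, n = 7 spots each). The 20-base probe averaged 5.15 ± 1.19 and then 5.81 ± 1.60 (SD, n = 7 spots each). The 21-base probe averaged 4.84 ± 1.78 and then 5.96 ± 0.28 (SD, n = 6 spots each). All 3 probes had higher means at day 8-10, and each overlapped between the arrays. These values lay close to the dimmest detected probe on each array, 4.86 at day 2-4 and 5.55 at day 8-10.

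The other 3p members, miR-290-3p, miR-291a-3p, miR-292-3p, miR-293 and miR-295, had no spot well above background on either array. Their medians at day 2-4 and day 8-10 were 0.80 and 0.68 for miR-290-3p, -0.62 and -0.088 for miR-291a-3p, and 0.016 and 0.56 for miR-292-3p. They were -0.22 and -0.14 for miR-293, and -0.83 and 0.71 for miR-295. Together with miR-291a-5p, these members gave 117 spots per array, from -2.54 to 3.51 at day 2-4 and from -2.12 to 3.31 at day 8-10. Negative control spots had 5th and 95th percentiles of -1.84 and 1.25 at day 2-4 and of -2.01 and 1.43 at day 8-10, with highest values of 2.70 and 2.83. The same percentiles over the undetected members' spots were -1.85 and 1.98 at day 2-4 and -1.33 and 2.05 at day 8-10, so their upper ends lay above those of the controls. By the looser flag for positive and significant spots, miR-290-3p would count as detected on both arrays. The same flag would count 254 of 567 mouse miRNAs at day 2-4 and 267 at day 8-10. The undetected members are thus described as not well above background, with no level given.

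**Figure D2:**
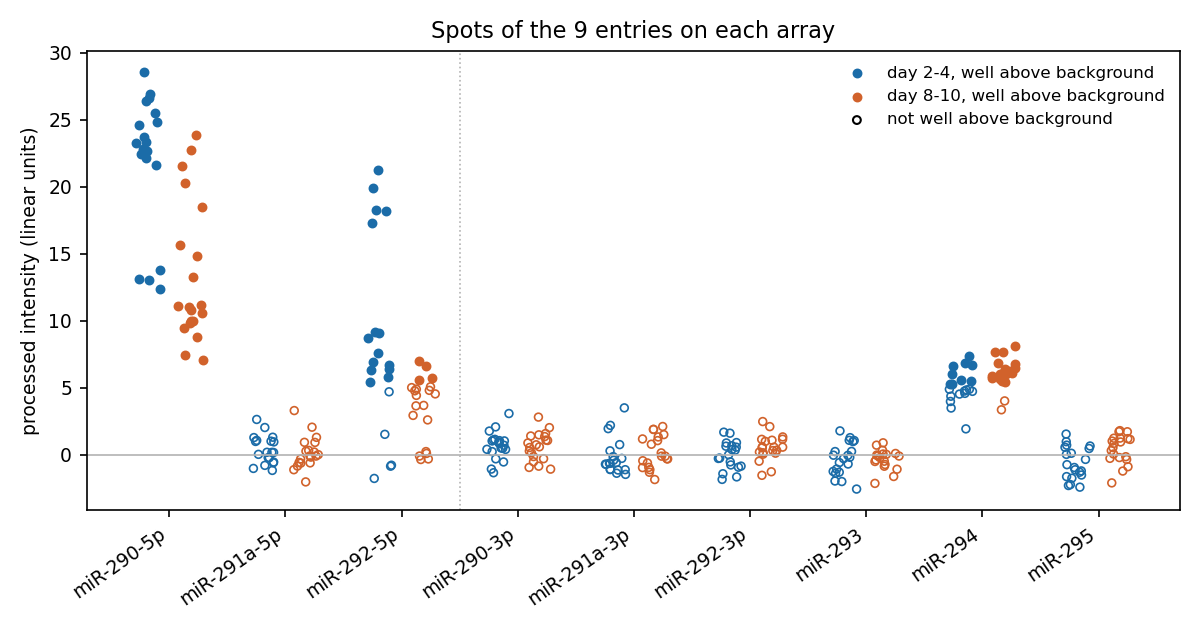
Processed intensity in linear units of every spot of the 9 members that was not an outlier, 5p members left of the dotted line and 3p members right of it; filled points were well above background and open points were not, with blue for day 2-4 and orange for day 8-10. miR-290-5p spans 12.4 to 28.6 and then 7.09 to 23.9, miR-292-5p and miR-294 have filled and open points on both arrays, and the spots of the other 6 members are open and stay between -2.54 and 3.51.

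To compare the windows, spots were divided by each array's 75th percentile, taken over 279 probes that were detected in both windows, floored at its dimmest detected probe and taken to log2. A log2 difference is day 8-10 minus day 2-4, and its standard error (SE) is over spots, which is technical only. miR-290-5p was 1.46-fold lower at day 8-10, a log2 difference of -0.55 (SE 0.047). miR-292-5p was 1.52-fold lower, a log2 difference of -0.60 (SE 0.050). miR-294 was 1.32-fold higher, a log2 difference of 0.41 (SE 0.060). Each difference exceeded 2 of its SE, but none reached the 2-fold size used for counting. Flooring narrows the SE of miR-292-5p and miR-294, which had spots under the floor. At day 8-10 every spot of the 14-base probe of miR-292-5p stood at the floor, so its SE was 0, and that of the 15-base probe was 0.0037. Passing 2 SE is therefore a weak mark for these miRNAs.

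Among the 145 mouse miRNAs with detection in both windows, 34 (23.4%) showed a difference of 2-fold or more that exceeded 2 SE, 23 (15.9%) higher and 11 (7.59%) lower at day 8-10. None of the 3 detected members did. With the 75th percentile over all mouse probes as the scale, the split over all miRNAs was 10 higher and 29 lower, and both 5p members passed 2-fold, at -1.05 for miR-290-5p and -1.11 for miR-292-5p. The median log2 difference was -0.55 over these members and 0.20 over all 145. The share of the 145 with a lower log2 difference was 18.6% for miR-290-5p, 15.2% for miR-292-5p and 61.4% for miR-294. Both 5p members thus lay in the lower part of the spread and miR-294 above its middle.

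The probes of the 5p members spread far more than the SE of their spots. For miR-290-5p the log2 difference by probe was -0.44 (12 bases), -0.046 (13 bases), -0.77 (14 bases) and -0.92 (15 bases), with an SD over probes of 0.39. For miR-292-5p it was 0.14 for the 13-base probe, the one detected on both arrays. In the scaling used here, the 14-base probe of miR-292-5p was at least 3.00-fold lower at day 8-10 and the 15-base probe at least 1.28-fold lower. Such a bound sets the lower of the probe's floored and unfloored means on the brighter array against the highest of its 2 means and the dimmest detected probe on the other. The SD over the 3 probes of miR-292-5p was 0.89, larger than its difference of -0.60, and with the 13-base probe alone its sign was positive.

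For miR-294 the 3 probes lay close together, with an SD of 0.071. The 19-base probe, detected on both arrays, had a log2 difference of 0.46 (SE 0.10). In the scaling used here, the 20-base probe was at least 1.24-fold higher and the 21-base probe at least 1.25-fold higher at day 8-10. These bounds hold for that scaling only, and the spots of both probes overlapped between the arrays. Unscaled, the 20-base probe averaged 5.15 and then 5.81.

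**Figure D3:**
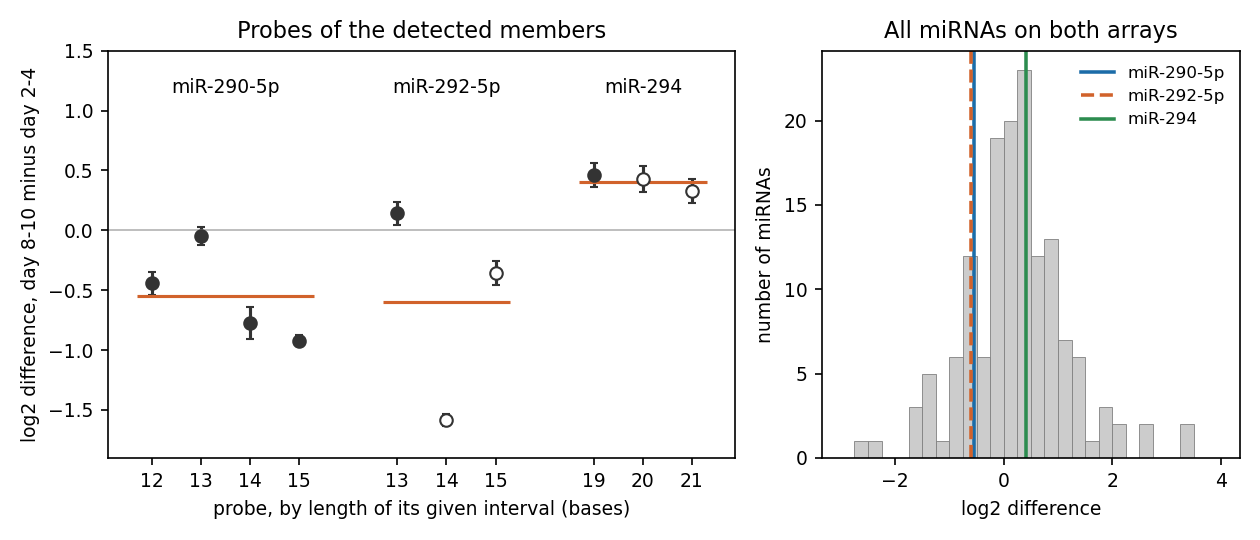
Left, log2 difference (day 8-10 minus day 2-4) of each probe of the 3 detected members, by the length of its given interval in bases; filled points were detected on both arrays and open points on 1, bars are ± 1 SE over spots, and orange lines are the mean of a member. Right, the number of miRNAs per bin of log2 difference for the 145 detected on both arrays, with the 3 members as lines at -0.55, -0.60 and 0.41.

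The floor bears on these values, because after scaling it stood 0.38 log2 units higher on the day 8-10 array. In the probes used, no spot of miR-290-5p lay under it. For miR-292-5p 0 of 15 spots did at day 2-4 and 11 of 15 at day 8-10, and for miR-294 9 of 20 and 4 of 20. Without a floor the log2 differences were -0.54 for miR-290-5p, -0.88 for miR-292-5p and 0.45 for miR-294.

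The sign for miR-294 depended on the scaling. It was -0.10 with the 75th percentile over all mouse probes and -0.048 after quantile normalization, settings that moved the median of all detected miRNAs from 0.20 to -0.30 and -0.13. Relative to that median, miR-294 was at 0.20 in the scaling used here, and at 0.20 and 0.080 in those settings. Relative to it, miR-290-5p stood at -0.75 and miR-292-5p at -0.80, and both stayed below it in 14 of 14 alternative settings, from -0.80 to -0.17 and from -1.77 to -0.061. Part of that count was fixed in advance. Settings that only rescale an array leave values relative to the median unchanged, and the deposited value table holds the same intensities. Under a normexp background correction, which adds a constant of 50, the differences shrank to -0.051 for miR-290-5p, -0.0020 for miR-292-5p and 0.14 for miR-294.

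**Figure D4:**
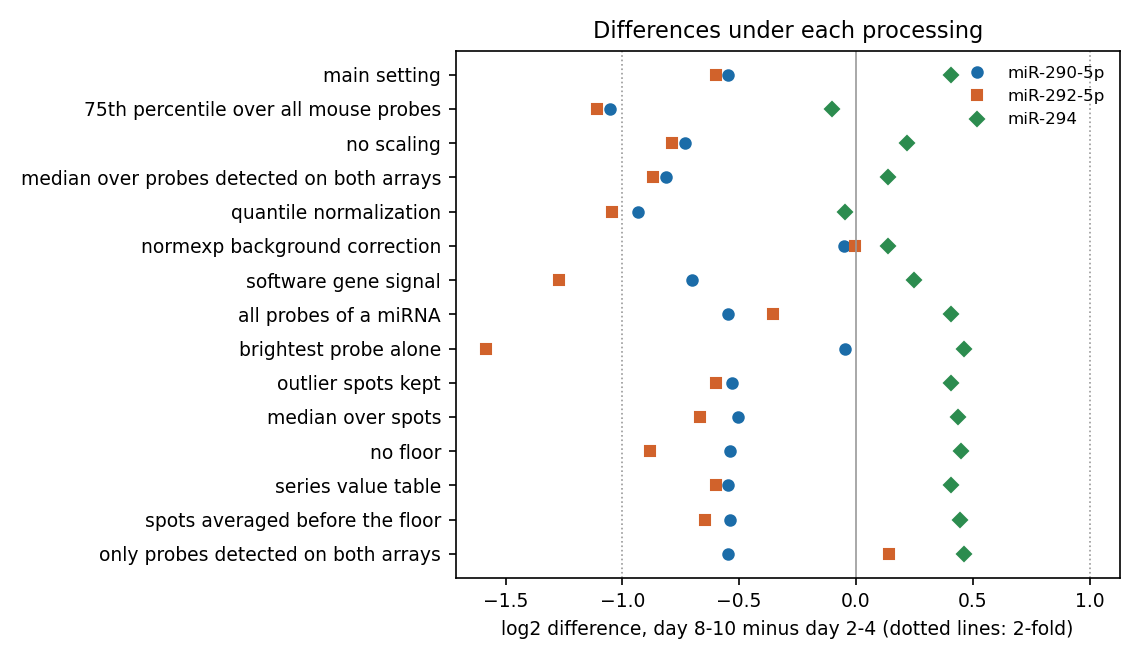
Log2 difference (day 8-10 minus day 2-4) of the 3 detected members under the setting used in the text (top row) and each alternative; dotted lines mark 2-fold. miR-290-5p stays below 0 from -1.05 to -0.046, miR-292-5p runs from -1.58 to 0.14, and miR-294 runs from -0.10 to 0.46.

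Entries with the same seed differed in detection. Of the 3 locus entries with the CUCAAAC seed, miR-290-5p and miR-292-5p were detected and miR-293* was not, and of the 3 with AAGUGCU, miR-294 was. Among pairs chosen after detection had been seen, miR-291a-3p and miR-294 were identical at 19 of 22 positions. Counted from the 5′ end, with the base of miR-291a-3p first, they differed at A12C, C13U and C22U. Yet the highest miR-291a-3p spot was 3.51 and none was well above background, while miR-294 was detected on both arrays.

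A run of at least 4 G stood in 3 of the 13 locus entries with a sequence, namely miR-290-5p, miR-292-5p and miR-295*. Of these, 2 were detected, against 1 of the 10 without such a run. The same count over the array was void, since 139 of 567 entry names (24.5%) matched a RefSeq mature name, under the 80% needed. The relation of this feature to intensity was not tested.

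The remaining entries of the locus and its functional relatives were set beside the members. None of the other locus entries, miR-291b-5p, miR-291b-3p, miR-293*, miR-294* and miR-295*, was detected on either array. The miR-302 cluster with miR-367, another embryonic stem cell cluster, was detected in 0 of 8 entries, 3 of them star arms. Over the array, 27.5% of all mouse entries were detected at day 2-4 and 29.3% at day 8-10. For star entries the shares were 6.14% and 7.89%. All entries of the miR-290 locus together came to 3 of 14 (21.4%), and the difference between these clusters was not tested.

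The miR-17 seed family, which promotes proliferation in many cell types and has the related seed AAAGUGC, was detected in 4 of 6 entries on both arrays. The share over all mouse entries was 27.5% at day 2-4 and 29.3% at day 8-10. miR-20a had a log2 difference of 0.28 (SE 0.037), miR-20b of 0.44 (SE 0.075), miR-93 of 0.11 (SE 0.066) and miR-106b of 0.92 (SE 0.033). None was 2-fold different, and their median of 0.36 stood beside 0.20 for all 145.

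Markers of the labelled cell type were set beside the members. Their lists were chosen with earlier results of these data known, so they are no independent check. All 8 adipocyte miRNAs, miR-103, miR-107, miR-143, miR-148a, miR-30c, miR-378, miR-193 and miR-365, were detected on both arrays. Of these, 7 were at least 2-fold higher at day 8-10, beside 23 of all 145 miRNAs (15.9%). The median log2 difference was 1.39 over the 8. Relatives by name outside the list went both ways. miR-193b was at -0.034, miR-30d at -0.097 and miR-30c-2* at -0.88. On the other side, miR-30a was at 0.85, miR-30b at 0.61, miR-30e at 1.09, miR-30c-1* at 0.38 and miR-148b at 0.83. Of the 7 fibroblast and mesenchymal miRNAs, miR-21, miR-22, miR-199a-5p, miR-199b, miR-214 and miR-31 were detected on both arrays and miR-145 on neither. Their log2 differences went both ways, -1.63 for miR-214, -1.40 for miR-199a-5p, -0.95 for miR-199b, 0.16 for miR-21, 0.26 for miR-31 and 0.59 for miR-22, with a median of -0.40. At the 2-fold rule miR-214 and miR-199a-5p counted as lower and none as higher, beside 11 of all 145 lower (7.59%). Both marker counts hold for the scaling used here. With the 75th percentile over all mouse probes as the scale, the split over all miRNAs was 10 higher and 29 lower. The marker counts were not repeated in that setting. The part that these shifts play in the members' differences was not tested.

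The non-members with log2 differences nearest to the members' median of -0.55 were miR-139-3p at -0.55, miR-221 at -0.57 and miR-92a at -0.51. That median is the value of miR-290-5p, while miR-294 had the opposite sign, at 0.41. These miRNAs were picked by nearness, so their likeness follows from the choice. The likeness is over 2 arrays, 1 per window.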

How the data were processed

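Per the file headers, the authors' deposited intensity values came from Agilent Feature Extraction 9.5.3.1. They are linear spot intensities from which a fitted spatial background was subtracted, and arrays were not normalized to each other. The deposited series value table equalled them at 12493 of 12493 spots on each array, to within 0.0001, so it is linear and uncentred. Its column medians were 0.516 and 0.646. The software's gene signal and spot flags were also used. Each array held 11340 spots of mouse miRNAs, 22.7% and 24.1% of them well above background.

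Control and outlier spots were left out. Arrays were scaled to the 75th percentile over probes detected on both (108 and 95.2 intensity units). Spots were floored, logged and averaged per probe, then over the probes detected on at least 1 array. Python 3.11.15, pandas 2.3.3, R 4.3.3 and limma 3.58.1 (for normexp) were used. The calculation was run on simulated arrays, drawn around the day 2-4 probe means with changes larger than 2-fold. Changes under 2-fold, the size found for the members in the setting used here, were not simulated. With 1 array per window no test could be run.

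The members were chosen by name, without use of intensities. The members, marker lists and thresholds were nonetheless set with earlier results of these data known. All 9 members, every related entry detected and the 3 miRNAs nearest in difference were named. Alternatives covered scaling, background correction, floor, outliers, spot summary, probes and the detection rule. Averaging spots before the floor, and using only probes detected on both arrays, were added after seeing the data.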

Additional observations from a re-analysis of the deposited data

How the results depend on the processing

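No paired analysis was possible because the labels give no replicate numbers and each window has 1 array, so leaving out a replicate was not possible either. miR-290-5p kept its sign in 14 of 14 alternatives, miR-292-5p in 13 and miR-294 in 12. Some alternatives could not change a value. The series value table holds the same intensities. Every probe of miR-290-5p was detected on both arrays, so using all probes or only probes detected on both returned its value unchanged. A member's value was taken as moved when it changed by more than the SD over its probes. This yardstick was chosen after values had been seen and was wide for miR-292-5p. For the members' median the SD over the detected members, 0.57, was used. For counts of miRNAs it was a fixed ratio to the count in the setting used in the text. miR-290-5p moved to -1.05 with the 75th percentile over all mouse probes, to -0.051 with normexp and to -0.046 with the brightest probe alone. For miR-292-5p the brightest probe gave -1.58, past 2-fold. It also passed 2-fold at -1.11 with all mouse probes, -1.04 with quantile normalization and -1.27 with the software's gene signal, but was 0.14 with only probes detected on both arrays and -0.0020 with normexp. For miR-294 the values were -0.10 with all mouse probes, 0.22 with no scaling, 0.14 with the median over probes detected on both arrays, -0.048 with quantile normalization, 0.14 with normexp and 0.25 with the gene signal. The members' median was 0.14 with only probes detected on both arrays. The count of all miRNAs at least 2-fold higher was 10 with all mouse probes, 13 with quantile normalization and 5 with normexp, beside 23. The count lower was 29 with all mouse probes, 19 with the median, 21 with quantile normalization, 5 with normexp, 18 with the gene signal and 18 when any well-above spot sufficed, beside 11. The higher against lower split therefore turned with the scaling. Requiring every spot well above background changed 1 member per array, losing miR-294 at day 2-4 and miR-292-5p at day 8-10. The positive-and-significant flag in place of well above background changed 1 member on each array, adding miR-290-3p. With it, 254 of 567 mouse miRNAs were detected at day 2-4 and 267 at day 8-10, beside 156 and 166. The cause of these changes was not tested. miR-294 and, at day 8-10, miR-292-5p lay near the dimmest detected signal, which limits their precision.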

Other observations

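Values of miR-291b-5p, chosen after they were seen, lay just under detection. Its 20 spots ran from 0.38 to 4.56 at day 2-4, none well above background, and from -0.41 to 7.57 at day 8-10, with 1 well above background. A looser flag for positive and significant spots marked 18 of its 20 spots at day 2-4 and 16 of 20 at day 8-10, against 5 of 19 and 3 of 19 for miR-291a-5p. These arms are identical at 20 of 22 positions and differ at C1G and U22C (miR-291a-5p base first, counted from the 5′ end). The position of C1G lies outside the probe intervals of both entries, and that of U22C lies inside. The intervals were 12 to 15 bases for miR-291a-5p and 10 to 13 for miR-291b-5p, so the probes are not matched in length. The relation of these features to the flags was not tested. The scanner software, by its own rule, called miR-291b-5p detected at day 8-10, with a gene signal of 3.11, and not at day 2-4, with 2.61.

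The same looser flag marked all 20 spots of miR-294 on both arrays and 8 of 20 spots of miR-290-3p on each.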
